A study of Mus musculus with 9 samples.

Results

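The unfolded protein and amino acid stress response was described through 10 genes chosen by symbol: Hspa5, Hsp90b1, Dnajb9, Herpud1, Xbp1, Atf4, Ddit3, Trib3, Chac1 and Asns. All 10 were found among the 22637 gene symbols of the expression tables, and all 10 were among the 17315 that passed the filter on low counts. Messenger RNA of whole kidney was sequenced in 9 libraries from mice of strain 129X1/SvJ at 9 weeks of age. The first 3 libraries came from Col4a3 -/- mice given antimiR-21, which blocks the microRNA miR-21 (the KO_antimiR21 group). Another 3 came from Col4a3 -/- mice given PBS, the injection vehicle (KO_PBS), and 3 came from wild-type mice labelled as not treated (WT), so the injection itself was not matched between KO_PBS and WT. Col4a3 encodes a type IV collagen chain of the glomerular basement membrane, and its loss in the whole animal is used as a model of Alport kidney disease. No label says if the 3 libraries in a group are from different mice, and every p-value below therefore measures only the spread between these samples.

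When unfolded proteins collect in the endoplasmic reticulum (ER), the sensors IRE1, ATF6 and PERK start a programme that raises chaperones, speeds the removal of misfolded proteins and slows translation. PERK and the amino acid sensor GCN2 both phosphorylate the initiation factor eIF2, and the mRNA of the transcription factor ATF4 is then translated more while most others are translated less. ATF4 and its partner CHOP switch on genes of amino acid synthesis, transport and glutathione breakdown, so ATF4 activity is controlled mainly at the protein level, which mRNA counts do not measure.

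The promoters of these genes carry 2 kinds of response element, and the windows that held one are shown. The windows are from RefSeq on GRCm38.p6 (the counts were made on mm9, so no coordinate was carried between them) and run from 250 bases before to 50 bases after the annotated start, 5′ to 3′ on the strand of the gene. Capitals mark the letters of a match. The amino acid response element was searched as TGATGNAA on both strands, so that on the opposite strand it reads TTNCATCA. It was found in the windows of Trib3 (chr2:152344011-152344310, minus strand), Asns (chr6:7693160-7693459, minus strand), Chac1 (chr2:119350992-119351291, plus strand) and Herpud1 (chr8:94386179-94386478, plus strand).
Trib3: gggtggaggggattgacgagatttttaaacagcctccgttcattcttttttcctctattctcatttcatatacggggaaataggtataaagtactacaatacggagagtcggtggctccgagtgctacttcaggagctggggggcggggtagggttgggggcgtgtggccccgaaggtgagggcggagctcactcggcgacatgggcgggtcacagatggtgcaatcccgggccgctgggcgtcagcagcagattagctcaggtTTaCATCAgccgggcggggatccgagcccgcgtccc
Asns: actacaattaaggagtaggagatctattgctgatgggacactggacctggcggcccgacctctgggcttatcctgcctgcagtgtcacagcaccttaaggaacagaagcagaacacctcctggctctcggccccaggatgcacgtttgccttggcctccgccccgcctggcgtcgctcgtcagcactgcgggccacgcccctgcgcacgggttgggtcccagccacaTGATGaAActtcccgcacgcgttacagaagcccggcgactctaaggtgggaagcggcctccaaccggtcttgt
Chac1: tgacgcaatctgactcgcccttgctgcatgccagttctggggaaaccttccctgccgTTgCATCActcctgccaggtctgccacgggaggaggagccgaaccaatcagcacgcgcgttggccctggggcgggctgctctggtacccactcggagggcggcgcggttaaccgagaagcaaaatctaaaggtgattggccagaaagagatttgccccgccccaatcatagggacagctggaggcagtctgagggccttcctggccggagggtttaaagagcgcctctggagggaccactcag
Herpud1: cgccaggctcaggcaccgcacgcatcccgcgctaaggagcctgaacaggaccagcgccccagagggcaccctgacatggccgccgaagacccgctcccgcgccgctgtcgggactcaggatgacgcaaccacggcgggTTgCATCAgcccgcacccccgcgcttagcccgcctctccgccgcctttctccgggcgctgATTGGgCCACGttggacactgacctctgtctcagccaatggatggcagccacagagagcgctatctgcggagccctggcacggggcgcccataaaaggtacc

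In Trib3 the match lay from 14 to 21 bases after the start, in Asns from -23 to -16, in Chac1 from -193 to -186 and in Herpud1 from -112 to -105. The same 8 letters occurred in 3.97% of all 32851 promoter windows of the table. They were also found for 17 genes of the pathway lists described further on, in which some genes had no window. In KO_PBS against WT 4 of those 17 rose (Atf3, Fgf21, Pck2 and Pycr1), 1 fell (Got1) and 12 did not pass the test. Over all genes tested, 14.6% were higher and 9.85% lower. Herpud1 also held an ER stress response element of the second type, searched as ATTGG and CCACG separated by 1 base, which stood in 0.0365% of all windows.

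The first type of ER stress response element was searched as CCAAT and CCACG separated by 9 bases on either strand, and stood in 0.119% of all windows. Among the pathway lists described further on, it was found for 6 of 15 ER chaperone and folding genes with a window. The list of ER-associated degradation and translocation had it for 2 of 15. Of the 10 genes it was found in 2, the ER chaperone genes Hspa5 (chr2:34771840-34772139, plus strand, 1 match) and Hsp90b1 (chr10:86705395-86705694, minus strand, 1 match on each strand).
Hspa5: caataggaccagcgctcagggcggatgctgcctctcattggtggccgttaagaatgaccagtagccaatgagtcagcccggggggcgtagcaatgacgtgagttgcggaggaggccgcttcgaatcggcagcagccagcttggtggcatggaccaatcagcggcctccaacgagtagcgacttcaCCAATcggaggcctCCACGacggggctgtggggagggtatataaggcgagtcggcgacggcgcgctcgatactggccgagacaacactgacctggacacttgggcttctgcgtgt
Hsp90b1: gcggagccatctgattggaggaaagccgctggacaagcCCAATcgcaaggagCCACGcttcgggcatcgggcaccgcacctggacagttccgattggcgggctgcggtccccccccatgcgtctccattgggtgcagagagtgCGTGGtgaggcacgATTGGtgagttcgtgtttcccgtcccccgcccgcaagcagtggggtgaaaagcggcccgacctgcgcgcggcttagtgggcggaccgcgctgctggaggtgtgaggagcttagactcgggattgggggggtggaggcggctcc

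Windows of Ddit3, Atf4, Xbp1 and Dnajb9 held none of these letters, and TGACGTGG, an element of XBP1 and ATF6 that stood in 0.676% of all windows, was in none of the 10. A match is a description of letters in these windows and not a measured binding site.

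Total expected counts ran from 26448275 to 31786624 per library. The lowest members were Trib3, with 13 to 114 reads per library, and Chac1, with 23 to 64, while the other 8 genes had at least 261. Col4a3, whose loss defines the knockout, had 104 ± 33.8 CPM in KO_antimiR21, 66.3 ± 25.6 in KO_PBS and 315 ± 57.1 in WT (CPM, the count relative to the TMM-scaled library total, mean ± SD, n = 3 libraries each). The libraries were not alike in sex: summed Y-linked genes stood at 102 to 115 CPM in the 6 knockout libraries, and at 0.928, 118 and 1.49 CPM in WT 1, 2 and 3, so WT 1 and WT 3 were female and WT 2 was the male one. A code in the library names was L5 for the KO_antimiR21 libraries and KO_PBS 3, and L4 for KO_PBS 1, KO_PBS 2 and the WT libraries. Markers of cell types also moved with the groups: in KO_PBS against WT, 6 of 7 macrophage markers and 6 of 6 fibroblast markers rose and 5 of 8 proximal tubule markers fell. Of 5 podocyte markers 0 passed the test. Over all genes tested, 14.6% were higher and 9.85% lower. Summed macrophage markers stood at 299 to 593 CPM in KO_antimiR21, 596 to 746 in KO_PBS and 158 to 189 in WT. Proximal tubule markers summed to 3460 to 6950 CPM in KO_antimiR21, 1430 to 4530 in KO_PBS and 8500 to 12800 in WT. Fibroblast markers summed to 562 to 1280 CPM in KO_antimiR21, 2040 to 2660 in KO_PBS and 270 to 331 in WT, and none of these markers was at 0 in all libraries. Of 7 immediate early genes, listed as a sign of tissue handling, 4 rose in KO_PBS, and their sums were 194, 237 and 152 CPM in KO_antimiR21 1, 2 and 3, 574, 467 and 275 in KO_PBS 1, 2 and 3, and 49.7, 179 and 264 in WT 1, 2 and 3. Of 8 tested B and plasma cell markers 4 rose, with sums of 49.7 to 113 CPM in KO_antimiR21, 92.8 to 235 in KO_PBS and 25.8 to 49.6 in WT. In whole kidney, fewer cells of a type and less RNA per cell cannot be told apart, and the part of cell makeup and tissue handling in the results below was not tested.

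KO_PBS was compared with WT to ask what differed in the PBS-injected knockout kidney. Among the 10 genes, Trib3, Chac1 and Asns rose. The ER chaperones Hspa5, Hsp90b1 and Dnajb9 and the transcription factors Xbp1, Atf4 and Ddit3 did not pass the test, and Herpud1 was lower at an adjusted p just above the threshold. That is 3 of 10 genes higher and 0 lower (edgeR quasi-likelihood test, Benjamini-Hochberg adjusted p under 0.05), where 14.6% of all genes tested were higher and 9.85% lower. Over all genes that is 2521 higher and 1705 lower, and with libraries scaled by total count only it was 3753 higher and 904 lower. The median log2 fold change of the 10 was 0.18, and that of all genes was -0.03.

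**Figure D1:**
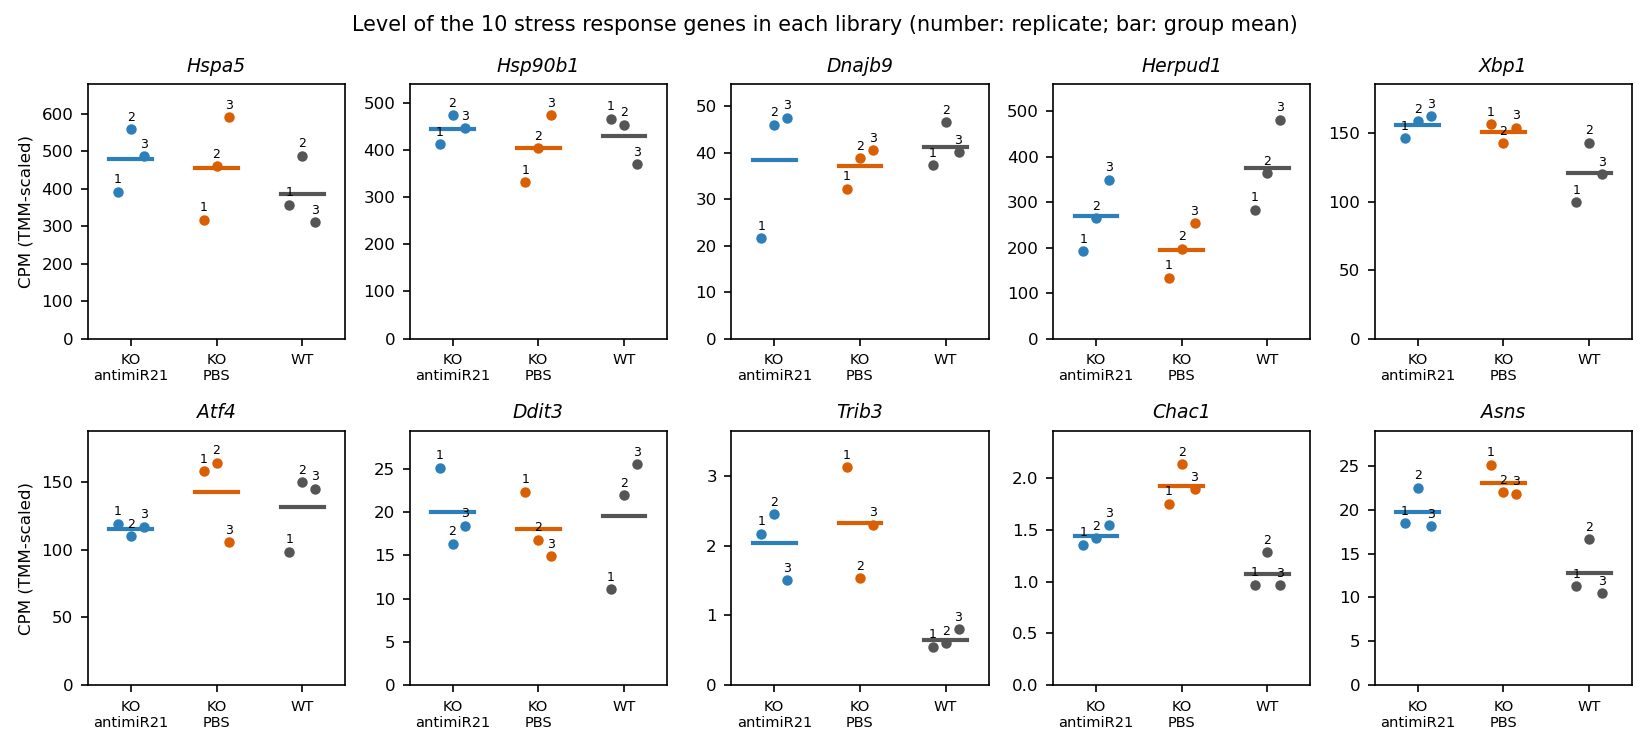
Each panel gives one gene in CPM of the TMM-scaled library total, with a point per library, its replicate number, and a bar at the group mean for KO_antimiR21, KO_PBS and WT. All 3 WT libraries lie below all 6 knockout libraries for Trib3, Chac1 and Asns, while the chaperone and transcription factor panels other than Xbp1 show groups that overlap.

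Hspa5 encodes BiP, the main HSP70 chaperone of the ER and the classic marker of ER stress. It had 317, 460 and 592 CPM in KO_PBS 1, 2 and 3, against 357, 488 and 311 CPM in WT 1, 2 and 3. The KO_PBS libraries spanned a wider range than the WT ones, and the groups overlapped. The log2 fold change was 0.24 ± 0.27 (estimate ± SE; edgeR adjusted p = 0.559), and it was -0.01 without KO_PBS 3. Hsp90b1, the HSP90 chaperone of the ER (GRP94), had 333, 404 and 475 CPM in KO_PBS and 467, 454 and 370 CPM in WT, with groups that overlapped and a log2 fold change of -0.09 ± 0.17 (edgeR adjusted p = 0.751). It turned to 0.02 without KO_PBS 1 and to 0.18 when libraries were scaled by total count only. Dnajb9, a J-domain cochaperone of BiP, had 32.3, 38.9 and 40.6 CPM in KO_PBS and 37.3, 46.6 and 40.1 CPM in WT. Its difference was -0.15 ± 0.27 (edgeR adjusted p = 0.739), and 0.13 with total-count scaling.

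Herpud1 encodes an ER membrane protein of ER-associated degradation, the path that returns misfolded proteins to the proteasome. It had 134, 198 and 253 CPM in KO_PBS against 283, 363 and 481 CPM in WT, so the highest KO_PBS library lay below the lowest WT library. The log2 fold change was -0.95 ± 0.31 with an edgeR adjusted p of 0.0515. It was the 1 of 10 genes whose groups did not overlap in the lower direction, beside Trib3, Chac1 and Asns in the higher direction, and 43.1% of all genes had groups that did not overlap. The adjusted p was 0.0132 with DESeq2 and 0.0447 with limma on the deposited log2 matrix. It was 0.0399 without KO_PBS 3, 0.0486 without WT 1, and 0.0459 and 0.0458 without KO_antimiR21 1 and 3, which enter only through the shared spread. This list holds only fits in which Herpud1 passed. It leaves out total-count scaling, the L4 libraries alone and the remaining fits with a library left out. The plot of log2 fold change by fit marks for each one if Herpud1 passed. In the reported fit Herpud1 missed the threshold, and it is not counted as lower. With sex as a term in the fit no gene passed, Herpud1 included.

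Xbp1 encodes the transcription factor that IRE1 activates by splicing its mRNA, a step that gene-level counts do not show. It had 157, 143 and 154 CPM in KO_PBS and 99.4, 143 and 120 CPM in WT. WT 2, the male WT library, lay at the level of the lowest KO_PBS library and the other WT libraries lay lower. The log2 fold change was 0.32 ± 0.15 (edgeR adjusted p = 0.147), and it was called only when libraries were scaled by total count (0.60, edgeR adjusted p = 0.0247).

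Atf4 had 158, 164 and 105 CPM in KO_PBS and 98.6, 150 and 145 CPM in WT. Each group had 2 libraries near the top of the range and 1 near 100 CPM. The log2 fold change was 0.12 ± 0.21 (edgeR adjusted p = 0.733), and -0.03 without WT 1. Ddit3, which encodes CHOP, had 22.4, 16.8 and 14.9 CPM in KO_PBS, within the WT values of 11.1, 22.0 and 25.5 CPM. Its difference was -0.12 ± 0.31 (edgeR adjusted p = 0.831), and 0.10 without WT 3. Ddit3 shares 68 exon bases with Mars on the opposite strand (GENCODE vM21), and, with the strand used in counting not given in the sources used here, reads of the 2 genes there cannot be told apart. The same limit holds for Hsp90b1, which shares 415 exon bases with the pseudogene 1810014B01Rik on the opposite strand. On its own strand Hsp90b1 shares 133 with Gm25745 and 84 with Gm15344.

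Trib3 encodes a pseudokinase that ATF4 and CHOP induce and that feeds back on both. It had 3.12, 1.53 and 2.30 CPM in KO_PBS, against 0.549, 0.602 and 0.804 CPM in WT. The lowest KO_PBS library stood well above the highest WT library. Trib3 rose by a log2 fold change of 1.83 ± 0.36 (edgeR adjusted p = 0.00785). That call held as each library was left out in turn.

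Asns, asparagine synthetase, had 25.2, 22.1 and 21.9 CPM in KO_PBS and 11.3, 16.7 and 10.5 CPM in WT. The KO_PBS libraries were close together and all above WT, of which WT 2 was the highest. Asns rose by 0.85 ± 0.20 (edgeR adjusted p = 0.0157). The adjusted p was 0.0611 without KO_PBS 1 and 0.0547 without WT 3. Chac1, which encodes an enzyme that degrades glutathione, had 1.75, 2.14 and 1.90 CPM in KO_PBS and 0.970, 1.28 and 0.965 CPM in WT, with no overlap. It rose by 0.84 ± 0.25 (edgeR adjusted p = 0.0377), the call nearest to the threshold. Leaving out any library other than WT 2 ended that call, with edgeR adjusted p from 0.0517 without KO_antimiR21 2 to 0.124 without KO_PBS 2. Without WT 2 it was 0.04.

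The male WT library gave Asns and Chac1 their highest WT values. With sex as a term in the fit, the log2 fold changes in KO_PBS were 1.94 for Trib3, 0.47 for Asns and 0.58 for Chac1 (edgeR adjusted p = 0.0935, 0.215 and 0.338). Among male libraries alone, which leaves 1 WT library, they were 1.97, 0.49 and 0.61 (edgeR adjusted p = 0.114, 0.23 and 0.365). The lone WT library is there assumed to vary like the other groups. With sex as a term 0 of 17315 genes passed. In that fit 4389 genes had an unadjusted p under 0.05 (edgeR), against 6398 without the term. Sex and genotype can be told apart only through WT 2. Among L4 libraries alone, Trib3 stood at 1.85 and was called, Asns at 0.89 (edgeR adjusted p = 0.0582) and Chac1 at 0.86 (edgeR adjusted p = 0.135).

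**Figure D2:**
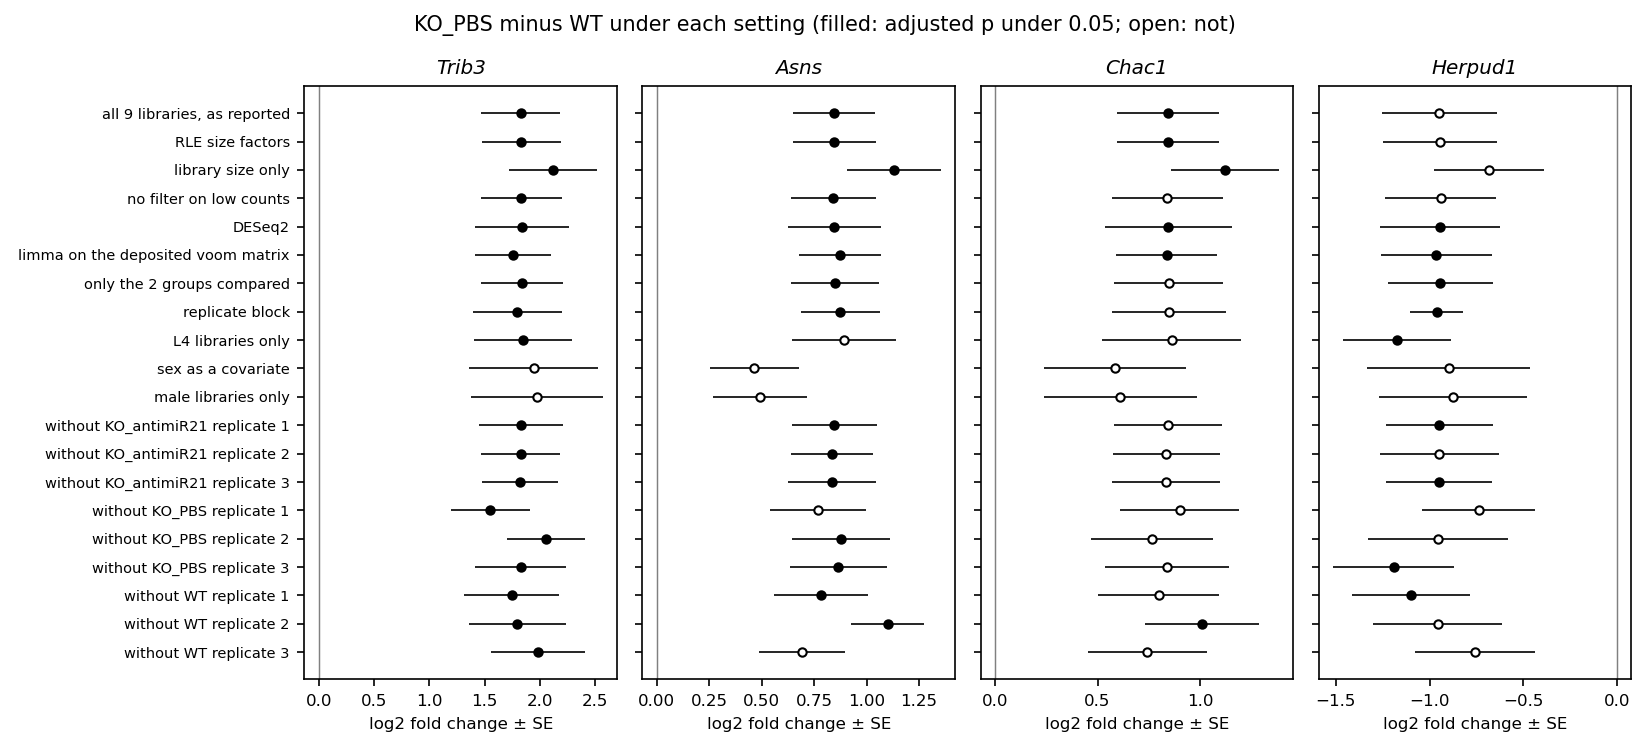
Log2 fold change of KO_PBS over WT with its SE for 4 genes, a line per fit, from all 9 libraries at the top through other scalings, tools and covariates to fits without 1 library; L4 is the code in the library names, and filled points have an adjusted p under 0.05. Trib3 stays between 1.55 and 2.11 and is open only in the fits by sex, whereas Asns is near 0.5 in those fits, Chac1 is open in most fits, and Herpud1 is below 0 in every fit.

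KO_antimiR21 was compared with KO_PBS to ask what the miR-21 inhibitor changed in the knockout kidney. None of the 10 genes passed the test. The edgeR test called 0 of 17315 genes, or 0%, at an adjusted p under 0.05, with 1203 at an unadjusted p under 0.05 and none of the 10 among them. DESeq2 called 19 genes, 7 higher and 12 lower, and none of the 10 either. Log2 fold changes of the 10 ran from -0.42 for Chac1 to 0.47 for Herpud1, with a median of 0.04 against -0.01 over all genes, and edgeR adjusted p from 0.734 to 0.989.

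Chac1 had 1.36, 1.42 and 1.54 CPM in KO_antimiR21, against 1.75, 2.14 and 1.90 CPM in KO_PBS. It was the 1 gene of the 10 whose groups did not overlap, a pattern found for 10.7% of all genes. The log2 fold change was -0.42 ± 0.24 (edgeR adjusted p = 0.734). Herpud1 had 192, 265 and 349 CPM in KO_antimiR21 and 134, 198 and 253 CPM in KO_PBS, with a difference of 0.47 ± 0.30 (edgeR adjusted p = 0.764). The 2 groups overlapped, since 2 of the KO_PBS values lay above the lowest KO_antimiR21 value.

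Asns had 18.5, 22.6 and 18.2 CPM in KO_antimiR21 and 25.2, 22.1 and 21.9 CPM in KO_PBS, and 2 of the treated libraries lay below all 3 PBS ones. Its log2 fold change was -0.22 ± 0.19 (edgeR adjusted p = 0.838). Trib3 had 2.17, 2.45 and 1.51 CPM in KO_antimiR21, inside or just under the KO_PBS span, with a difference of -0.18 ± 0.33 (edgeR adjusted p = 0.946) that turned to 0.11 without KO_PBS 1. Atf4 had 119, 110 and 117 CPM in KO_antimiR21, which were close together, and 158, 164 and 105 CPM in KO_PBS. Its difference was -0.30 ± 0.21 (edgeR adjusted p = 0.778), and 0.13 among L5 libraries alone, where KO_PBS 3 was the only PBS library.

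Dnajb9 had 21.6, 46.0 and 47.5 CPM in KO_antimiR21, where replicate 1 was the lowest of all 9 libraries, and 32.3, 38.9 and 40.6 CPM in KO_PBS. Hspa5 had 393, 559 and 488 CPM in KO_antimiR21 and Hsp90b1 had 413, 474 and 446 CPM. Both sets fell inside the KO_PBS spans given above. Xbp1 with 146, 159 and 162 CPM and Ddit3 with 25.1, 16.3 and 18.4 CPM in KO_antimiR21 also overlapped KO_PBS, at differences of 0.04 ± 0.15 and 0.15 ± 0.31 (edgeR adjusted p = 0.979 and 0.958).

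KO_antimiR21 was also compared with WT, and this comparison shares its libraries with the 2 above. In it every KO_antimiR21 library had the code L5 and every WT library L4, so code and group cannot be told apart. WT also held the female libraries WT 1 and WT 3 and was labelled as not treated. Trib3 rose, by a log2 fold change of 1.64 ± 0.36 (edgeR adjusted p = 0.0257), and was the 1 gene of 10 called, where 6.72% of all genes were higher and 0.427% lower. The call was lost without KO_antimiR21 1, KO_antimiR21 2, WT 1, WT 2 or WT 3 (edgeR adjusted p = 0.0801, 0.0943, 0.095, 0.0731 and 0.0609) and in the fit with sex as a term (1.757, edgeR adjusted p = 0.257). Asns stood at 0.62 ± 0.20 (edgeR adjusted p = 0.106), and passed without WT 2 (0.88, edgeR adjusted p = 0.0222) and with DESeq2 (adjusted p = 0.0467). Xbp1 stood at 0.37 ± 0.15 and Chac1 at 0.42 ± 0.25 (edgeR adjusted p = 0.206 and 0.401). Trib3, Asns, Chac1 and Xbp1 were the 4 genes whose KO_antimiR21 libraries all lay above WT, and 24.5% of all genes had groups that did not overlap in this comparison. Herpud1 stood at -0.48 ± 0.30 (edgeR adjusted p = 0.435). The median of the 10 was 0.18, against -0.04 over all genes.

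**Figure D3:**
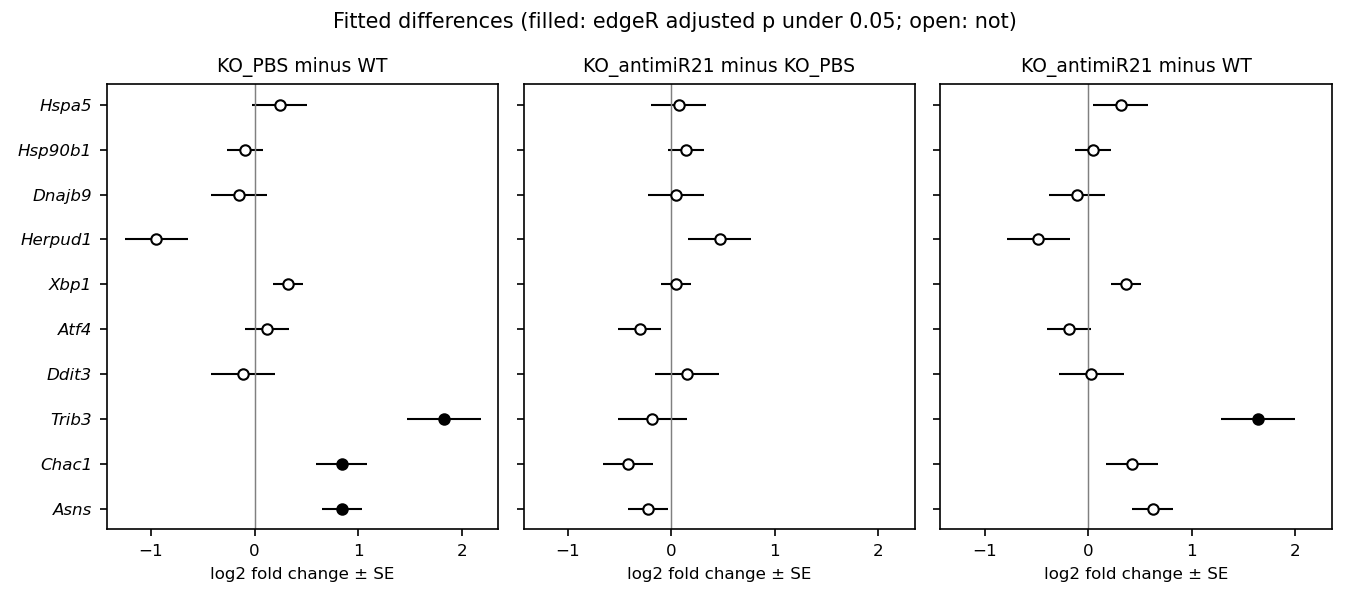
Log2 fold change ± SE of the 10 genes in KO_PBS over WT, KO_antimiR21 over KO_PBS and KO_antimiR21 over WT, ordered by role from ER chaperones to ATF4 targets, with filled points at an edgeR adjusted p under 0.05. Filled points are Trib3, Chac1 and Asns on the left and Trib3 on the right; the middle panel has none, and its values lie between -0.42 and 0.47.

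The rest of the pathway was read from 9 lists, of which 133 genes were tested. In KO_PBS against WT, 24 of them rose and 13 fell, with a median log2 fold change of 0.06; over all genes 14.6% were higher and 9.85% lower, shares close to those of the lists together, and each list's count below is to be read against them. The rises were most numerous among feedback, partner and death genes of the PERK, ATF4 and CHOP arm, with 8 of 18 higher and 0 lower at a median of 0.815. The count was 5 without KO_PBS 1 and 5 without KO_PBS 2. Over all genes the number higher went from 2521 to 1756 and 1811 in the same fits. Those libraries had the highest immediate early sums, and the part of tissue handling in this count was not tested. Atf3, 1 of the 8, is also in the immediate early list. Eif4ebp1, which encodes the translation inhibitor 4E-BP1, had 44.2, 33.5 and 34.8 CPM in KO_PBS and 15.5, 14.3 and 17.2 CPM in WT. All KO_PBS libraries were well above WT, and Eif4ebp1 rose by 1.26 ± 0.19 (edgeR adjusted p = 0.00291). Atf5, a bZIP factor related to ATF4, rose by 0.96 ± 0.16 (edgeR adjusted p = 0.00415). Fgf21, a stress hormone, had 0.603, 0.501 and 0.652 CPM in KO_PBS and no reads in any WT library. KO_PBS was at least 4.78-fold higher than the floor of 3 counts per WT library (0.122 CPM), and the list median was the same with Fgf21 at that bound.

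Genes of amino acid synthesis and one-carbon metabolism moved both ways in KO_PBS, with 6 of 16 higher and 4 lower at a median of 0.115. Aldh18a1, which makes the proline precursor from glutamate, had 18.1, 15.96 and 15.5 CPM in KO_PBS and 5.02, 3.93 and 3.42 CPM in WT. The groups were far apart, and Aldh18a1 rose by 2.001 ± 0.24 (edgeR adjusted p = 0.00147). Mthfd1l and Mthfd2, enzymes of the mitochondrial folate cycle, rose by 1.57 ± 0.28 and 1.47 ± 0.29 (edgeR adjusted p = 0.00526 and 0.00781). Cth, which makes cysteine, and Shmt2, the mitochondrial serine hydroxymethyltransferase, were 2 of the 4 that fell, with log2 fold changes of -1.97 ± 0.40 and -1.41 ± 0.35 (edgeR adjusted p = 0.00889 and 0.021).

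Of 10 amino acid transporters of the ATF4 response 1 rose in KO_PBS, and 2 without WT 2. Slc7a5, the large neutral amino acid transporter LAT1, had 15.6, 14.95 and 14.2 CPM in KO_PBS and 3.75, 4.61 and 4.18 CPM in WT, tight and far apart, and rose by 1.83 ± 0.23 (edgeR adjusted p = 0.00161). Its heavy-chain partner Slc3a2 stood at 0.07 ± 0.20 (edgeR adjusted p = 0.828). Of 18 cytosolic aminoacyl-tRNA synthetases 2 rose, and 7 with total-count scaling. Vars, for valine, rose by 1.06 ± 0.19 (edgeR adjusted p = 0.00579). Lars, for leucine, rose by 0.42 ± 0.12 (edgeR adjusted p = 0.0301), a call that was lost when any KO_PBS or WT library was left out, with edgeR adjusted p up to 0.107 without KO_PBS 1.

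On the ER side of the pathway were 17 ER chaperones and folding enzymes other than the 10 genes. In KO_PBS 2 of the 17 rose, a share close to the 14.6% of all genes, and 0 fell, at a median of 0.056. Sdf2l1, a BiP cofactor, stood at 14.0, 15.7 and 17.6 CPM in KO_PBS and 10.1, 9.26 and 8.53 CPM in WT, without overlap, and rose by 0.76 ± 0.18 (edgeR adjusted p = 0.0154). Armet, the older symbol of the secreted ER stress factor Manf, rose by 0.61 ± 0.15 (edgeR adjusted p = 0.0179). Without KO_PBS 3 or WT 3 neither was called: Sdf2l1 had an edgeR adjusted p of 0.0588 and 0.0604, and Armet 0.0628 and 0.067. Armet also missed the threshold without KO_PBS 2 or WT 1 (edgeR adjusted p = 0.0511 and 0.0584).

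Of 18 genes of ER-associated degradation and translocation 3 rose and 1 fell in KO_PBS, and 1 rose and 1 fell without KO_PBS 2, WT 1 or WT 3. Sec61a1, the channel subunit through which proteins enter the ER, rose by 0.63 ± 0.13 (edgeR adjusted p = 0.00899). Tloc1, the older symbol of its partner Sec62, had 197, 224 and 201 CPM in KO_PBS and 373, 353 and 361 CPM in WT, and fell by 0.81 on the log2 scale (SE 0.16, edgeR adjusted p = 0.00774). Among 13 stress sensors and eIF2 kinases, Eif2ak2, the kinase PKR, rose by 0.58 ± 0.14 (edgeR adjusted p = 0.0171), and missed the threshold without KO_PBS 1 or WT 3 (edgeR adjusted p = 0.0681 and 0.0563). Eif2ak4, the amino acid sensor GCN2, fell by 0.38 (SE 0.11, edgeR adjusted p = 0.041), and that call was lost without KO_antimiR21 3 and without any KO_PBS or WT library (edgeR adjusted p up to 0.15 without WT 2). With total-count scaling Eif2ak4 stood at -0.095 (edgeR adjusted p = 0.652).

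Other protein-folding compartments were listed for contrast. Of 13 cytosolic heat shock genes 1 rose and 1 fell in KO_PBS. Hspb1, the small heat shock protein HSP25, had 54.3, 30.4 and 33.7 CPM in KO_PBS and 4.51, 14.9 and 9.17 CPM in WT, and rose by 2.05 ± 0.45 (edgeR adjusted p = 0.0129). The gene that fell was Hsp110 (Hsph1) at -1.62 ± 0.51 (edgeR adjusted p = 0.0458), which stood at -0.84 without WT 2, its highest library (edgeR adjusted p = 0.145), and -1.35 with total-count scaling (edgeR adjusted p = 0.0632). Of 10 mitochondrial chaperones and proteases 6 fell and 0 rose, at a median of -0.65, among them the chaperonin gene Hspe1 at -0.93 ± 0.21 (edgeR adjusted p = 0.0147). Without KO_PBS 1 the count was 0 of 10, with Hspe1 at -0.84 (edgeR adjusted p = 0.0565). It was 1 of 10 without KO_PBS 2, WT 1 or WT 2 and with total-count scaling, and 3 of 10 without KO_PBS 3. With sex as a term or among male libraries, 0 genes of any list were called.

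**Figure D4:**
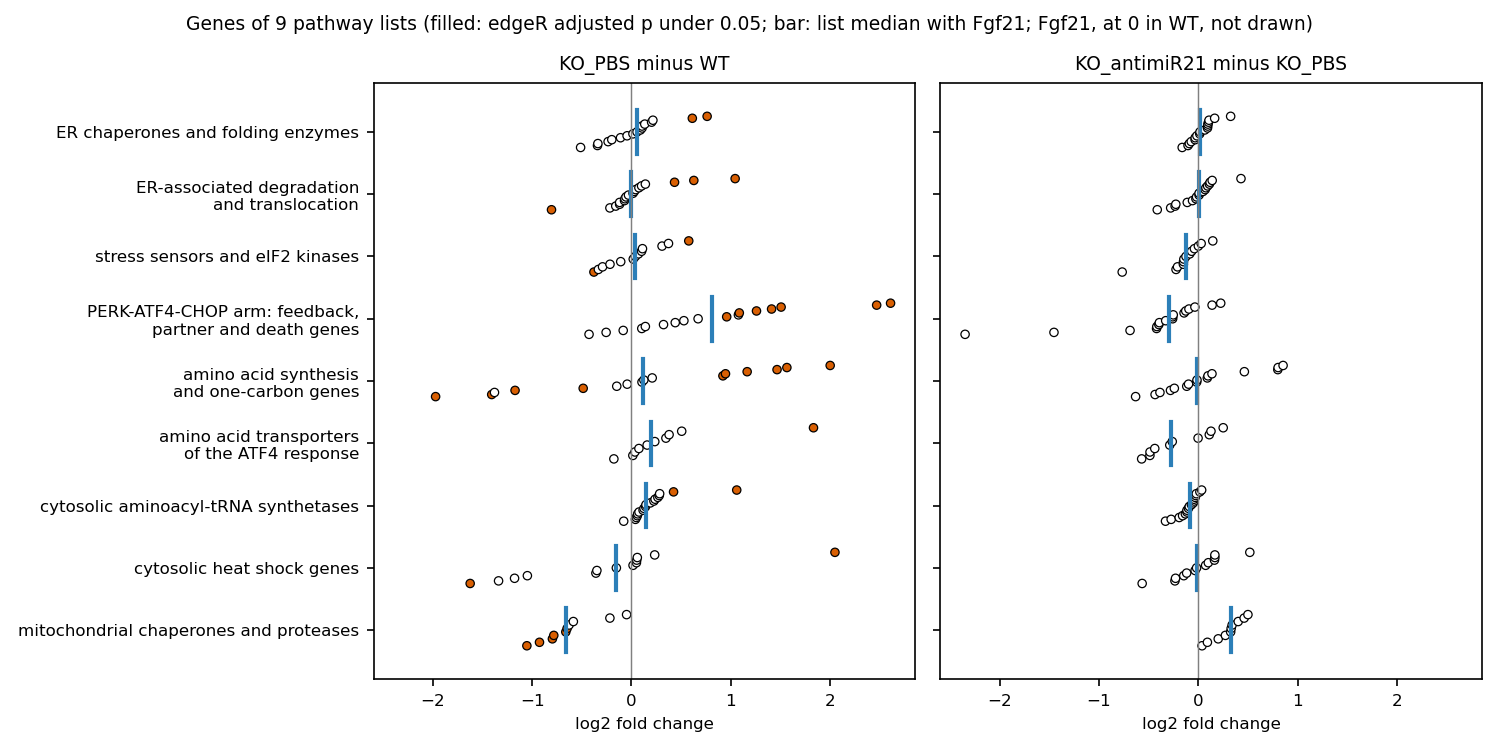
Log2 fold change of each tested gene of the 9 pathway lists in KO_PBS over WT and in KO_antimiR21 over KO_PBS, a row per list, with filled points at an edgeR adjusted p under 0.05 and bars at list medians. On the left, filled points to the right of 0 number 7 in the PERK, ATF4 and CHOP arm (Fgf21 is not drawn) and 6 in the amino acid synthesis list, and those to the left 6 in the mitochondrial list and 4 in the amino acid synthesis list; on the right no point is filled.

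In KO_antimiR21 against KO_PBS, 0 of the 133 genes passed in edgeR and 4 had an unadjusted p under 0.05. The lowest p in the PERK, ATF4 and CHOP list belonged to Gdf15, a stress cytokine. It had 10.7, 18.0 and 8.09 CPM in KO_antimiR21, against 89.7, 79.5 and 18.5 CPM in KO_PBS. KO_PBS 3 lay just above the highest treated library, and the other PBS libraries were far higher. The immediate early sums given above, 152 to 237 CPM in KO_antimiR21 and 574, 467 and 275 in KO_PBS 1, 2 and 3, followed the same order in KO_PBS. The B and plasma cell marker sums did too, at 235, 163 and 92.8 CPM, of which Igj gave 133, 87.0 and 20.1. Not every marker of that list did: Irf4 had 6.99, 6.11 and 7.14 CPM. The part of either list in the Gdf15 difference was not tested. The log2 fold change of Gdf15 was -2.35 ± 0.59 (edgeR adjusted p = 0.707, DESeq2 adjusted p = 0.0238), and -0.59 among L5 libraries alone. Aldh18a1 had 11.5, 12.8 and 7.61 CPM in KO_antimiR21, below all KO_PBS libraries, at -0.63 ± 0.23 (edgeR adjusted p = 0.707). Slc7a5 had 11.02, 13.5 and 7.42 CPM in KO_antimiR21, also below all KO_PBS libraries, at -0.49 ± 0.22 (edgeR adjusted p = 0.707).

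In KO_antimiR21 against WT, 9 of the 133 genes rose and 0 fell, a share close to the 6.72% of all genes that were higher. They were Armet, Fgf21, Eif4ebp1, Atf5, Aldh18a1, Mthfd1l, Mthfd2, Pck2 and Slc7a5. Here too the library code differed wholly between the groups, L5 against L4, and its part was not tested. Aldh18a1 and Slc7a5 rose by 1.37 ± 0.24 and 1.35 ± 0.23 (edgeR adjusted p = 0.0097 and 0.00883), and these calls held as each library was left out in turn. Fgf21 had 0.427, 0.580 and 0.294 CPM in KO_antimiR21, at least 3.54-fold above the floor in WT. Armet, Eif4ebp1, Atf5 and Pck2 (log2 fold changes 0.63, 0.86, 0.71 and 0.81) were lost without KO_antimiR21 1, KO_antimiR21 2, KO_PBS 2, WT 1 or WT 3, at edgeR adjusted p from 0.0504 to 0.13. Eif4ebp1, Atf5 and Pck2 were also lost without WT 2 (edgeR adjusted p = 0.0858, 0.0888 and 0.101), and Mthfd1l, at 1.47, without KO_antimiR21 2 or WT 3 (0.0538 and 0.0592).

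**Figure D5:**
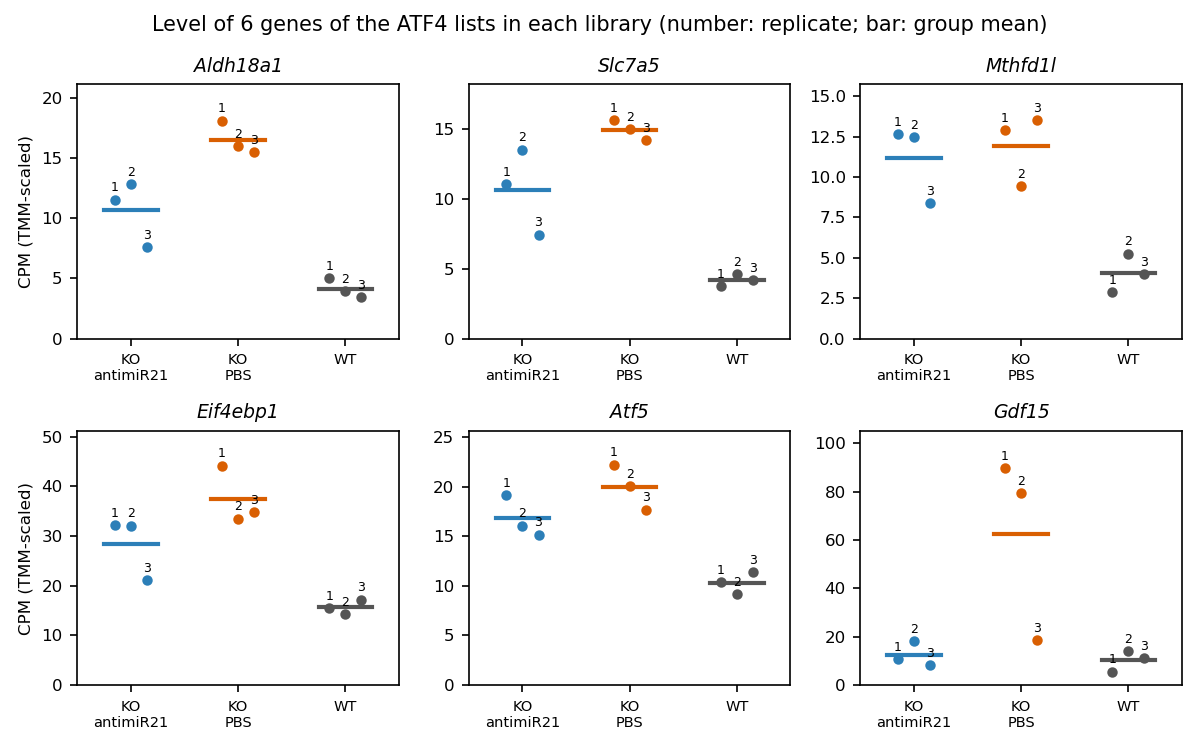
CPM of 6 genes of the ATF4 lists in KO_antimiR21, KO_PBS and WT, with a point per library, its replicate number and a bar at the group mean. For Aldh18a1 and Slc7a5 the KO_antimiR21 libraries lie between the KO_PBS and WT libraries, and for Gdf15 KO_PBS 1 and 2, at 89.7 and 79.5, stand apart from the other 7.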

How the data were processed

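The authors deposited a table of expected counts per gene symbol for each of the 9 libraries, made with Bowtie and RSEM on mm9 per the submitters' processing notes, and a log2 matrix of the 9 libraries for which limma is named there. Versions and the strand used in counting are not given in the sources used here. Libraries were made with the TruSeq RNA v2 kit from 150 ng of RNA, per the labels' protocols.

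Expected counts were rounded, filtered with filterByExpr and fitted in 1 model of 3 group means over all 9 libraries (edgeR 4.0.16 quasi-likelihood test, TMM scaling, R 4.3.3). Tests were two-sided, with Benjamini-Hochberg adjustment over the 17315 genes of each comparison. SDs are over n = 3 libraries per group. The script was tested on simulated data. Alternatives used DESeq2 1.42.0, limma 3.58.1 on the log2 matrix, other scalings, no filter, sex, library code, replicate number and each library left out. Male libraries had at least 10 CPM of Y-linked genes.

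Groups came from the sample titles and descriptions. The 10 genes, the 9 pathway lists and the marker lists were chosen with earlier results of these data known. Of 135 pathway genes 134 were found, 7 by an older symbol. Genes named are the 10, Col4a3 and the 3 genes of each list with the lowest p in a comparison, of which part is given. Cth, Shmt2 and Slc3a2, which the rule takes in other comparisons, were named in KO_PBS against WT after their values were seen. Igj, Irf4 and the genes named for a promoter match were also named after their values were seen. Expected counts carry no gene lengths in these tables, so levels are not compared between genes. Promoter letters came from RefSeq (GRCm38.p6), and overlaps from GENCODE vM21.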

Additional observations from a re-analysis of the deposited data

How the results depend on the processing

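The 10 genes gave 560 values of log2 fold change over all comparisons and alternatives other than those reported, of which 478 kept their direction and their side of the threshold. Of 10 genes, 3 were called in KO_PBS against WT; 0 were with sex as a term or among male libraries, and 1 to 3 with 1 library left out. Over all genes the 4226 calls became 0 with sex as a term, and 2423 to 4332 with 1 library left out. With sex as a term 4389 genes had an unadjusted p under 0.05 (edgeR), against 6398 as reported. For KO_antimiR21 against WT, the 1 gene became 2 with DESeq2 and 0 by sex, male libraries or replicate block (0 to 1 with 1 library left out), and the 1238 calls over all genes became 2010 with DESeq2, 707 with only the groups compared, 0 by sex or male libraries, and 667 to 1602 with 1 library left out. For KO_antimiR21 against KO_PBS, DESeq2 called 19 genes and edgeR 0.

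No label says that replicate numbers pair the samples, and correlations of same-numbered deviations, from -0.37 to 0.44, do not settle it. Herpud1 was lowest in replicate 1 and highest in replicate 3 in each group. With the replicate block the calls were 3205 in KO_PBS against WT and 923 in KO_antimiR21 against WT, and Trib3 in the second stood at 1.64 (edgeR adjusted p = 0.0688), while in the first Herpud1 passed at -0.96 (0.00665) and Chac1 did not (0.0746).

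Directions turned only in values that were not called. In KO_PBS against WT, total-count scaling, which moved the median of all genes to 0.25, gave Hsp90b1 0.18, Ddit3 0.17 and Dnajb9 0.13; L4 libraries gave Ddit3 0.02; sex gave Hspa5 -0.098, Atf4 -0.074 and Slc6a9 -0.109, and male libraries Hspa5 -0.075, Atf4 -0.047 and Slc6a9 -0.083. In KO_antimiR21 against KO_PBS, total-count scaling, with all genes at -0.14, gave Hspa5 -0.04, Ddit3 -0.001, Xbp1 -0.089, Dnajb9 -0.075 and P4hb -0.031; limma and the block gave Dnajb9 -0.019 and -0.013; L5 libraries gave Hspa5 -0.30, Hsp90b1 -0.096, Atf4 0.129, Dnajb9 -0.08 and P4hb -0.005. In KO_antimiR21 against WT, total-count scaling gave Dnajb9 0.051; sex gave Hspa5 -0.026, Hsp90b1 -0.033, Ddit3 -0.14 and Slc3a2 0.24, and male libraries Hsp90b1 -0.001, Ddit3 -0.10 and Slc3a2 0.27. The cause was not tested.

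With 1 library left out, values in KO_PBS against WT ran from -0.245 to 0.021 (Hsp90b1), -0.008 to 0.465 (Hspa5), -0.028 to 0.283 (Atf4) and -0.37 to 0.10 (Ddit3). In KO_antimiR21 against KO_PBS they ran from -0.054 to 0.355 (Ddit3), -0.11 to 0.34 (Hspa5), -0.12 to 0.33 (Dnajb9) and -0.41 to 0.11 (Trib3), and in KO_antimiR21 against WT from -0.22 to 0.27 (Ddit3), -0.28 to 0.18 (Dnajb9) and -0.059 to 0.134 (Hsp90b1). Counts of 13 to 114 reads limit the precision of Trib3, counts of 23 to 64 that of Chac1, and 3 libraries per group that of every comparison.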
